A study of Rattus norvegicus with 288 samples.

Results

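The genes described here mark the successive parts of the nephron, the filtering and reabsorbing unit of the kidney, and were followed in rat kidney after an anticancer drug combination. They were chosen by name as textbook markers of 5 segments, and 35 genes were named. The array held a probe set for 33 of these 35 genes, of 14218 genes with a probe set in all, and 32 of them passed a filter on low values that left 12310 genes for testing. The tested genes comprised 4 podocyte genes, 13 of 14 proximal tubule genes, 4 genes of the thick ascending limb of the loop of Henle, 4 of 6 distal tubule genes and 7 collecting duct genes. Slc6a19, a neutral amino acid transporter of the proximal tubule, and Trpm6, a magnesium channel of the distal tubule, had no named probe set. Pvalb, a calcium-binding protein of the early distal tubule, had a probe set but failed the filter.

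Male Sprague-Dawley rats, 8 weeks old and carrying a femoral vein cannula, were infused either with oxaliplatin at 15 mg/kg or with its vehicle D5W (dextrose in water). Each rat then received by mouth sterile water, sunitinib at 5 mg/kg, F68 (Pluronic F68 with both propylene and polyethylene glycol) or sorafenib at 25 mg/kg, where water was the vehicle of sunitinib and F68 that of sorafenib. Oxaliplatin is a platinum compound that forms DNA adducts, and sunitinib and sorafenib are inhibitors of growth factor receptor kinases. Left kidneys were taken at 1, 6 and 24 h after dosing, with 4 rats in each of 24 groups, and RNA came from kidneys cut into sections, for which the share of cortex and medulla is not given. Water and sunitinib rats were dosed on one day and F68 and sorafenib rats on another, per the study's methods.

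The kidney works as a series of tubular segments with separate tasks. Podocytes wrap the glomerular capillaries and hold back protein, and the proximal tubule then recovers most of the filtered sodium, glucose, phosphate, bicarbonate and amino acids. The thick ascending limb takes up salt without water, the distal convoluted tubule trims sodium, calcium and magnesium, and the collecting duct sets the final water and salt content of urine under vasopressin and aldosterone. Platinum drugs are known to harm tubule cells, and loss of segment transporters is one of the familiar signs of tubular injury.

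Of 96 kidney arrays, 95 were used. The array left out, a rat given D5W then sorafenib at 24 h, had an Umod level of 6.40 on the log2 scale, whereas the other 95 arrays lay between 14.26 and 14.58. The same array had a hepatocyte marker median of 14.38 against 5.57 to 9.70 on the others. Another rat of that group had the next highest albumin signal, 12.97 against a median of 7.32. One array, from a rat given oxaliplatin then sunitinib at 1 h, had a low hybridization control (BioB 4.69 against a median of 8.56) and a raised array median of 7.81 against 7.35. Oxaliplatin then sorafenib replicate 3 at 1 h had the highest fibroblast and smooth muscle marker median (11.24 against a median of 9.28). It also had the highest lymphocyte marker median (8.39 against 7.13). In the D5W then F68 group at 6 h, replicates 3 and 4 stood apart in the medians of whole segments. Their loop medians were 12.14 and 12.05 and their proximal medians 12.12 and 12.27, whereas the other 6 D5W vehicle rats at 6 h had loop medians of 11.38 to 11.63 and proximal medians of 12.62 to 12.95. Oxaliplatin effects in 8 against 8 rats, oral vehicle contrasts in D5W rats and time contrasts are also given without both rats. This is done where it ends a call, and for Slc12a3. Effects within 1 oral vehicle, over all 4 oral arms, averaged over both infusions or of a kinase inhibitor are not given without them. The choice to leave both rats out was made after seeing the data. All values below are log2 signals or differences of log2 signals, SE is the standard error of the limma fit, and adjusted p is its p-value after Benjamini-Hochberg adjustment over 12310 genes. Levels are compared between samples for 1 gene and never between genes, because probe sets differ in brightness.

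The promoters of 4 of the genes are shown, 2 that differed between oral vehicles and 2 between infusions, with groups that did not overlap. These differences are described below. Aqp1 and Aqp3 also differed between oral vehicles without overlap, and their promoters are not shown. Each sequence is the 250 bases before the annotated start, 5′ to 3′ on the strand of the gene, from RefSeq on the GRCr8 build. Capitals mark CACGTG, an E-box, the element bound by many transcription factors of the basic helix-loop-helix class, and GTTAAT or its reverse complement, the core of the site of the tubular factor HNF1. Aqp2 lies on the plus strand at chr7:132590036-132590285, Slc9a3 on the minus strand at chr1:30996003-30996252, Egf on the minus strand at chr2:220976298-220976547 and Slc17a1 on the minus strand at chr17:41681175-41681424.
Aqp2: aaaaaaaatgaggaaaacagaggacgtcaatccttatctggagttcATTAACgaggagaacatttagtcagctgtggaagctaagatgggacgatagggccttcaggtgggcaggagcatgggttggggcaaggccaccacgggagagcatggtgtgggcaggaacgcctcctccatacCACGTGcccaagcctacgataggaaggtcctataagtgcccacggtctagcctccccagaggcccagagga
Slc9a3: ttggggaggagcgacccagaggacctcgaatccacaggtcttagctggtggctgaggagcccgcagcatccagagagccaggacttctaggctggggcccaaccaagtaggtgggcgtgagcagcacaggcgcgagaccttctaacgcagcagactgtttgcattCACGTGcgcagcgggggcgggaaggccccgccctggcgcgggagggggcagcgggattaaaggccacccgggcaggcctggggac
Egf: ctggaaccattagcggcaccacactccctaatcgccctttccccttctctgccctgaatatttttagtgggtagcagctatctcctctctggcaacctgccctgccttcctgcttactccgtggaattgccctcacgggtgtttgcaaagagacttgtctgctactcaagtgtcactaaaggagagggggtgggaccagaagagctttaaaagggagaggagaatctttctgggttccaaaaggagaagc
Slc17a1: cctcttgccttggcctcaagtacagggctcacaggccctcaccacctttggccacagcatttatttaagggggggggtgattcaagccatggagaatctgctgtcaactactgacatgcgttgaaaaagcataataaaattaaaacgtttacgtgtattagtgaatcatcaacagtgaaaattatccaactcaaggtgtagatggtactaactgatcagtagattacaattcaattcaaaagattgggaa

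The Aqp2 promoter held both motifs, with the E-box starting at position -71 and the HNF1 core at position -204, counted back from the start. The Slc9a3 promoter held an E-box at position -85, and the windows of Egf and Slc17a1 held neither string of letters. Over both strands, the E-box was found in 5 of 32 promoters of the named genes (Aqp2, Slc13a3, Slc5a1, Slc9a3 and Wt1) and in 5.79% of all 27457 promoters. The HNF1 core was found in 3 of 32 (Aqp2, Slc34a1 and Slc6a19) and in 6.46% of all promoters. Aqp1 and Aqp3, which also differed between oral vehicles, held neither motif, so the promoters shown do not stand for all such genes. These matches describe letters and were not tested as binding sites. Calb1, Fxyd2 and Scnn1a had no entry.

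The segment genes were first checked against the other organs of the same rats. In D5W rats given an oral vehicle, 28 of 33 genes were higher on every one of 24 kidney arrays than on any of 24 heart or 24 liver arrays. The difference between the kidney mean and the higher of the other means reached 8.93 for Calb1, the calcium-binding protein of the distal tubule, 8.80 for Umod, the uromodulin of the thick ascending limb, and 8.03 for Slc34a1, the main phosphate transporter of the proximal tubule. Exceptions were found in 3 segments. Wt1, a transcription factor of podocytes, was at 8.27 ± 0.18 (SD, n = 24) in kidney and at a mean of 8.59 in heart, and the ranges of Podxl, the podocalyxin of podocyte and endothelial surfaces, overlapped between kidney and heart. Slc2a2, a glucose transporter that hepatocytes also use, was higher in liver (mean 12.95) than in kidney (mean 11.59). Slc17a1, an anion and phosphate transporter, was at 12.16 in kidney and 11.38 in liver, and the ranges of the arrays overlapped. Pvalb lay at 5.36 in kidney and liver and 5.22 in heart, so this probe set did not separate the organs.

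**Figure D1:**
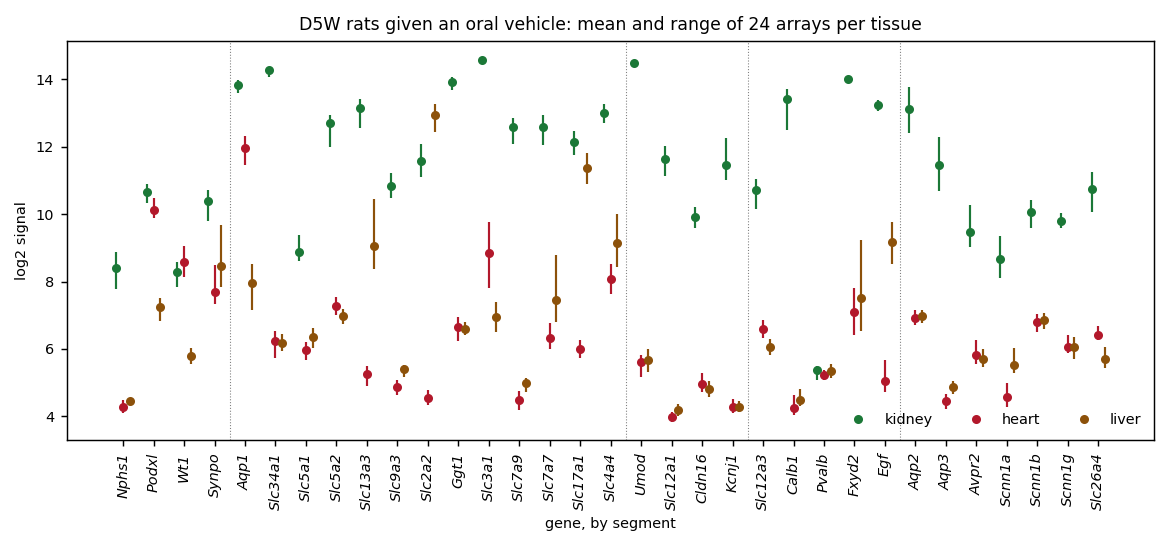
Log2 signal of 33 nephron segment genes in kidney, heart and liver of D5W rats given an oral vehicle. Points are means and lines the range of 24 arrays per tissue, and dotted lines separate the segments. Kidney lies above both other organs for 28 genes and not for Podxl, Wt1, Slc2a2, Slc17a1 and Pvalb.

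The effect of oxaliplatin was taken as the difference between 8 oxaliplatin and 8 D5W rats at each time, pooling the water and F68 rats with equal weight. Umod of the loop, Egf and Slc12a3 of the distal list and the channel subunit Scnn1g of the collecting duct were lower after oxaliplatin at some times. The proximal transporters Slc2a2 and Slc17a1 and the channel subunit Scnn1a were higher at some times, and the other 25 members did not pass. At 1 h, 1 of 32 members passed (0 higher, 1 lower), beside 9.41% of all genes tested, of which 4.45% were higher and 4.96% lower as shares of all. At 6 h, 5 of 32 passed (2 higher, 3 lower), beside 20.6% of all genes, of which 12.7% were higher and 7.88% lower. At 24 h, 4 of 32 passed (2 higher, 2 lower), beside 7.80% of all genes, with 5.61% higher and 2.19% lower. The share of members called was thus below that of all genes at 1 and 6 h and above it at 24 h, with 4 genes. The median difference over the 32 members was -0.06 at 1 h, -0.07 at 6 h and -0.03 at 24 h, whereas that of all genes was -0.02, 0.01 and 0.01.

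**Figure D2:**
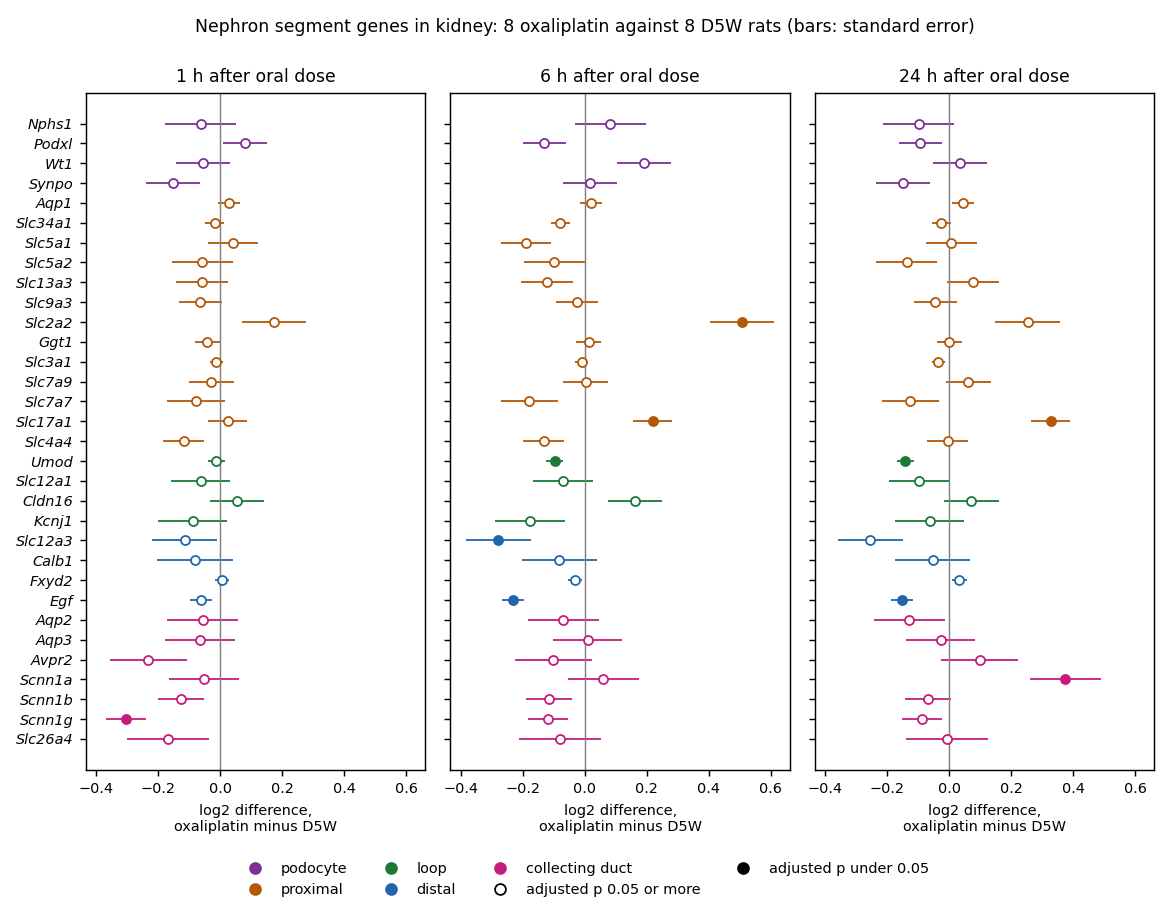
Log2 difference, oxaliplatin minus D5W, for 32 nephron segment genes at 3 times, with 8 rats per arm. Points are differences, bars are standard errors, colours are segments and filled points have an adjusted p under 0.05. The filled points are Scnn1g at 1 h, 5 genes at 6 h and 4 genes at 24 h.

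Among podocyte genes, none of 4 passed at any time. Their differences ran from -0.15 to 0.08 at 1 h, from -0.13 to 0.19 at 6 h and from -0.15 to 0.04 at 24 h, and included Nphs1, the nephrin of the slit diaphragm, at 0.08 at 6 h (adjusted p = 0.692). The median of the 4 was -0.06 at 1 h, with 3 of 4 negative, and 0.09, with 4 of 4 positive, when all 4 oral arms were pooled, so that no direction can be given. The pooled oxaliplatin arm held the array with the low hybridization control, whose podocyte median was the highest of all 95 arrays (10.10).

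In the proximal tubule, 2 of 13 genes changed and both were higher. Slc2a2, which passes glucose out of the cell into the blood, ranged from 11.52 to 12.02 with a median of 11.68 in 8 D5W rats at 6 h and from 11.81 to 12.54 with a median of 12.21 in 8 oxaliplatin rats. The arms overlapped, and the difference was 0.51 ± 0.10 (SE), a 1.42-fold rise (adjusted p = 1.22e-04). At 1 h the difference was 0.17 (adjusted p = 0.367) and at 24 h it was 0.25 (adjusted p = 0.133). Slc17a1 ranged at 6 h from 11.75 to 12.23 with a median of 12.06 in D5W rats and from 12.10 to 12.33 with a median of 12.27 in oxaliplatin rats, a difference of 0.22 ± 0.06 (adjusted p = 0.00678). At 24 h it ranged from 12.08 to 12.23 with a median of 12.15 in D5W rats and from 12.34 to 12.64 with a median of 12.46 in oxaliplatin rats. Every oxaliplatin rat then lay above every D5W rat, and the rise was 0.33 ± 0.06 or 1.26-fold (adjusted p = 1.91e-04). Slc17a1 was the only member whose arms did not overlap at 24 h, beside 1.56% of all genes. The other 11 proximal genes stayed between -0.19 and 0.02 at 6 h. They include Slc5a2, the main glucose cotransporter, at -0.10 (adjusted p = 0.559), Slc34a1 at -0.08 (adjusted p = 0.0536) and Slc9a3, the sodium-hydrogen exchanger, at -0.02 (adjusted p = 0.863). The rest were Aqp1, Slc5a1, Slc13a3 (a dicarboxylate transporter), Ggt1 (the brush border gamma-glutamyl transferase), Slc3a1, Slc7a9, Slc7a7 and Slc4a4.

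In the thick ascending limb, 1 of 4 genes changed. Umod, which encodes the most abundant protein of normal urine, ranged at 6 h from 14.42 to 14.58 with a median of 14.49 in D5W rats and from 14.35 to 14.45 with a median of 14.39 in oxaliplatin rats. It was lower by a small step that passed the test (-0.10 ± 0.03, adjusted p = 0.00574). At 24 h the D5W rats ranged from 14.41 to 14.53 with a median of 14.49 and the oxaliplatin rats from 14.27 to 14.43 with a median of 14.35, a difference of -0.14 ± 0.03 (adjusted p = 1.98e-04). Without both D5W then F68 rats that stood apart, the 6 h difference was -0.07 ± 0.03 (adjusted p = 0.113). Umod sat close to the top of the scale, whose highest value in the table was 15.26, where array signals can be compressed. Slc12a1, the salt cotransporter that loop diuretics block, was at -0.07 at 6 h (adjusted p = 0.694) and Kcnj1, the potassium channel that recycles its potassium, at -0.18 (adjusted p = 0.295). Cldn16, a tight junction protein of magnesium uptake, was at 0.16 (adjusted p = 0.196).

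In the distal list, 2 of 4 tested genes changed. Egf, the precursor of epidermal growth factor, was placed in this list by name, and the segment of its signal was not measured. It ranged at 6 h from 13.17 to 13.40 with a median of 13.29 in D5W rats and from 12.99 to 13.13 with a median of 13.05 in oxaliplatin rats. All 8 oxaliplatin rats lay below all 8 D5W rats, a pattern that 3.69% of all genes showed at this time in either direction and that no other member showed. The difference was -0.23 ± 0.04, a 1.17-fold fall (adjusted p = 3.54e-07). At 24 h the D5W rats ranged from 13.07 to 13.28 with a median of 13.16 and the oxaliplatin rats from 12.92 to 13.18 with a median of 12.98. The arms overlapped, and the difference was -0.15 ± 0.04 (adjusted p = 0.00237). At 1 h it was -0.06 (adjusted p = 0.322). The Egf effect at 6 h was lower than that at 1 h by a test of the change itself (-0.17 ± 0.05, adjusted p = 0.0219), whereas no member's effect changed between 6 and 24 h (7 members at an unadjusted p under 0.05 in the former contrast and 0 in the latter, with 7.99% and 11.3% of all genes called). Without 1 D5W then F68 rat of the 6 h group (replicate 4), this change in Egf had an adjusted p of 0.0555.

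Slc12a3, the thiazide-sensitive sodium chloride cotransporter, ranged at 6 h from 10.14 to 11.04 with a median of 10.65 in D5W rats and from 10.10 to 10.77 with a median of 10.42 in oxaliplatin rats. Its difference was -0.28 ± 0.10 (adjusted p = 0.0465), and leaving out any 1 of 9 of the 16 rats moved the adjusted p above 0.05, up to 0.166. Without both D5W then F68 rats that stood apart, the 6 h difference was -0.41 ± 0.11 (adjusted p = 0.00558). At 24 h the difference of Slc12a3 was -0.25 (adjusted p = 0.132). Calb1 was at -0.08 (adjusted p = 0.723) and Fxyd2, a subunit of the sodium pump, at -0.03 (adjusted p = 0.396) at 6 h.

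In the collecting duct, 1 of 7 genes changed at 1 h and 1 at 24 h, and both encode subunits of the epithelial sodium channel, which carries the last regulated step of sodium uptake. Scnn1g, its gamma subunit, ranged at 1 h from 9.58 to 10.03 with a median of 9.82 in D5W rats and from 9.37 to 9.77 with a median of 9.49 in oxaliplatin rats, a fall of -0.30 ± 0.06 (adjusted p = 3.84e-04). At 6 h its difference was -0.12 (adjusted p = 0.205). Scnn1a, its alpha subunit, ranged at 24 h from 8.11 to 8.61 with a median of 8.47 in D5W rats and from 8.56 to 9.36 with a median of 8.70 in oxaliplatin rats, a rise of 0.37 ± 0.11 (adjusted p = 0.0266). The D5W rats at 24 h were themselves lower in Scnn1a than those at 1 and 6 h. Leaving out 1 of 4 rats, namely oxaliplatin then F68 replicate 3 (at 9.36), D5W then water replicates 1 and 2 or D5W then F68 replicate 3, moved the adjusted p of Scnn1a above 0.05, up to 0.114. Aqp2, the vasopressin-regulated water channel, was at -0.07 at 6 h (adjusted p = 0.753), and Avpr2, the vasopressin receptor, was at -0.23 at 1 h (adjusted p = 0.288). Aqp3, Scnn1b and Slc26a4 did not pass at any time, with differences from -0.17 to 0.01.

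**Figure D3:**
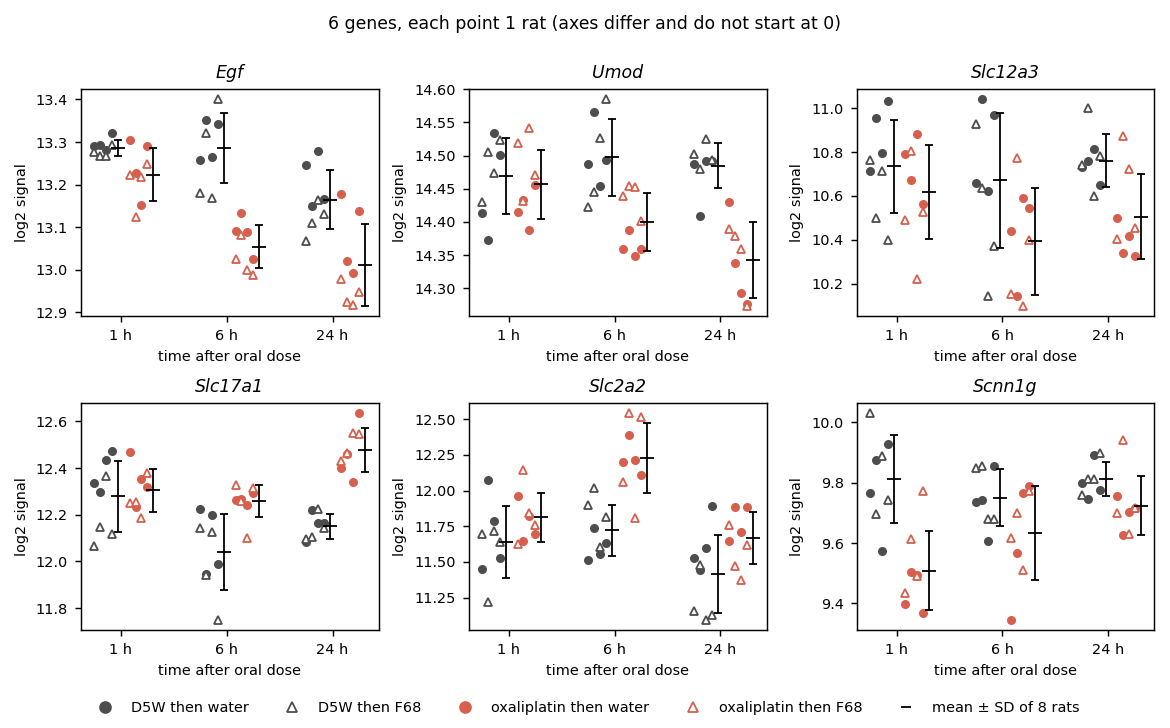
Log2 signal of 6 nephron segment genes in each of 8 D5W and 8 oxaliplatin rats at 1, 6 and 24 h, with filled circles for oral water, open triangles for F68 and black bars for the mean ± SD. All 8 oxaliplatin rats lie below the D5W rats for Egf at 6 h and above them for Slc17a1 at 24 h.

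Because the oral vehicles were given on separate days, the effect was also taken within each. Egf at 6 h was lower in the water rats (-0.22 ± 0.05, adjusted p = 0.00111) and in the F68 rats (-0.24 ± 0.05, adjusted p = 4.00e-04). Slc17a1 at 24 h was higher in both (0.30 ± 0.09, adjusted p = 0.0480, and 0.35 ± 0.09, adjusted p = 0.0201), and Umod at 24 h was lower in both (-0.14 ± 0.04, adjusted p = 0.0390, and -0.15 ± 0.04, adjusted p = 0.0263). Slc2a2 at 6 h was at 0.62 ± 0.15 in the water rats (adjusted p = 0.00188) and at 0.40 ± 0.15 in the F68 rats (adjusted p = 0.0780). Umod at 6 h was at -0.14 in the water rats (adjusted p = 0.0110) and at -0.06 in the F68 rats (adjusted p = 0.407). Other calls were lost in an arm of 4 against 4 rats. Slc17a1 at 6 h was at 0.18 in the water rats (adjusted p = 0.219), Egf at 24 h at -0.13 in the water rats (adjusted p = 0.203) and Scnn1g at 1 h at -0.26 in the F68 rats (adjusted p = 0.118). Slc12a3 at 6 h was lost in both (-0.39, adjusted p = 0.0742, and -0.16, adjusted p = 0.573), as was Scnn1a at 24 h (0.30, adjusted p = 0.456, and 0.45, adjusted p = 0.148). With 4 rats an arm, 3 members passed at 6 h in the water rats (11.2% of all genes) and 2 in the F68 rats (8.90% of all genes). The F68 effects at 6 h are not given without the D5W then F68 rats that stood apart.

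Pooling all 4 oral arms, with 16 rats per infusion (15 for D5W at 24 h), gave more calls at 6 h. There 16 of 32 members passed, 3 higher and 13 lower, beside 34.8% of all genes (21.8% higher and 13% lower). All 4 loop genes were among them: Umod at -0.12 ± 0.02 (adjusted p = 2.64e-07), Slc12a1 at -0.20 ± 0.07 (adjusted p = 0.0167) and Kcnj1 at -0.20 ± 0.08 (adjusted p = 0.0444) were lower, and Cldn16 was higher (0.19 ± 0.06, adjusted p = 0.00954). Egf, at 12.90 to 13.15 with a median of 13.03 in 16 oxaliplatin rats and at 13.17 to 13.46 with a median of 13.31 in 16 D5W rats, fell by 0.27 ± 0.03 (adjusted p = 7.66e-15). In the proximal tubule 5 genes were lower, namely Slc34a1, Slc5a1 (a glucose cotransporter), Slc9a3, Slc7a7 (a cationic amino acid transporter) and Slc4a4 (the basolateral bicarbonate cotransporter), by 0.07 to 0.24, while Slc2a2 (0.45 ± 0.07) and Slc17a1 (0.17 ± 0.04) were higher. Slc12a3, Podxl, Scnn1b and Scnn1g completed the 13 that were lower. The D5W arm held both D5W then F68 rats that stood apart with high loop medians, and this pooling is not given without them. For Kcnj1 the D5W rats had a median of 11.38 and a highest value of 12.25, and the oxaliplatin rats a median of 11.28.

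At 1 h this pooling called 2 members, Scnn1g (-0.22 ± 0.05) and Slc4a4 (-0.15 ± 0.05), beside 17.8% of all genes. Its oxaliplatin arm at 1 h held the array with the low hybridization control and the array with the highest fibroblast and lymphocyte marker medians. At 24 h the pooling called 4, beside 12.7% of all genes. Umod ranged from 14.26 to 14.43 with a median of 14.30 in 16 oxaliplatin rats and from 14.41 to 14.54 with a median of 14.49 in 15 D5W rats, and fell by 0.17 ± 0.02 (adjusted p = 4.21e-10). Egf (-0.19 ± 0.03, adjusted p = 2.36e-08) and Slc12a3 (-0.28 ± 0.08, adjusted p = 0.00549) were lower too. Slc17a1, from 11.87 to 12.31 in D5W and from 12.32 to 12.64 in oxaliplatin rats, was higher by 0.35 ± 0.05 (adjusted p = 1.11e-08). Scnn1a was not among them (0.19 ± 0.08, adjusted p = 0.119).

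Other genes of each segment, from separate lists of 7 podocyte, 17 proximal, 8 loop, 7 distal and 14 collecting duct genes, were tested in the same contrasts of 8 against 8 rats. Their counts stand beside the 9.41%, 20.6% and 7.80% of all genes called at 1, 6 and 24 h, and several lie near those shares. In the loop, 1 of 8 was lower at 1 h, Casr, the calcium-sensing receptor (-0.47 ± 0.11, adjusted p = 0.00184), and 3 of 8 were lower at 6 h, including Cldn10, a paracellular sodium channel (-0.36 ± 0.06, adjusted p = 6.74e-07). In the distal list, Klhl3, an adaptor that controls the kinases of Slc12a3, was lower at 1 h (-0.54 ± 0.10, adjusted p = 2.36e-05), and 2 of 7 were lower at 6 h, led by Slc8a1, the sodium-calcium exchanger (-0.78 ± 0.13, adjusted p = 1.92e-06). In the collecting duct, 2 of 14 were lower and 1 higher at 1 h, and 4 were lower and 1 higher at 6 h. Nr3c2, the mineralocorticoid receptor through which aldosterone acts, was lower at 1 h (-0.46 ± 0.08, adjusted p = 4.30e-06) and at 6 h (-0.49 ± 0.08, adjusted p = 4.43e-07), and its effect had moved back by 0.40 ± 0.11 between 6 and 24 h (adjusted p = 0.00736). Atp6v1g3, a proton pump subunit of intercalated cells, was higher at both times (0.34 and 0.33). In the proximal list of 17, Slc26a1, a sulfate transporter, was higher at 1 h (0.23 ± 0.07, adjusted p = 0.0215) and 6 h (0.34 ± 0.07, adjusted p = 1.10e-04), and 2 of the 17 were lower at 6 h, Car4, a carbonic anhydrase of the brush border (-0.29 ± 0.08, adjusted p = 0.00826), and Gc, a plasma vitamin D carrier made mainly by liver (-0.70 ± 0.26, adjusted p = 0.0436). Of 7 podocyte genes, Cd2ap, an adaptor of the slit diaphragm, passed at 6 h (0.16 ± 0.05, adjusted p = 0.0140). At 24 h a single gene of these lists passed, Miox, a proximal inositol oxygenase (-0.07 ± 0.02, adjusted p = 0.0353).

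Markers of other cells moved at 24 h. Of 4 erythroid markers 2 were lower after oxaliplatin, Alas2 (-1.04 ± 0.21, adjusted p = 3.06e-04) and Hbb (-0.47 ± 0.10, adjusted p = 0.00103), and the median of the list ran from 8.67 to 9.59 in oxaliplatin and from 9.10 to 10.03 in D5W rats. Of 9 macrophage markers 3 were lower (Lyz2, Csf1r and Cd74), with list medians of 8.87 to 9.38 in oxaliplatin and 9.13 to 9.74 in D5W rats. At 6 h 1 macrophage marker, Adgre1, was lower (-0.83 ± 0.16, adjusted p = 4.15e-05), and at 1 h no marker of the 6 lists passed. The difference between 3′ and 5′ actin probe sets, a sign of RNA quality, had medians of 0.53 at 1 h, 0.47 at 6 h and 0.45 at 24 h in D5W rats, against 0.55, 0.49 and 0.41 in oxaliplatin rats. The same difference for hexokinase had medians of 1.23, 1.09 and 1.11 in D5W rats and of 1.26, 1.24 and 1.03 in oxaliplatin rats, higher at 6 h and lower at 24 h. The part of these measures in the values of the segment genes was not tested. In whole tissue, fewer cells of a type and less RNA per cell cannot be told apart.

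In D5W rats, 4 members differed between the oral vehicles at 1 or 6 h, and both calls at 6 h were lost without the 2 rats that stood apart. At 6 h, 2 of 32 passed, beside 3.93% of all genes, and both were water channels of the collecting duct that were higher after F68 than after water. Aqp2, in the apical membrane, was at 12.42, 12.67, 13.05 and 13.13 in the 4 water rats and at 13.22, 13.51, 13.65 and 13.78 in the 4 F68 rats. All F68 rats lay above all water rats, and 8.24% of all genes did not overlap in this contrast. The mean difference was 0.72 ± 0.16 or 1.65-fold (adjusted p = 0.00534). Aqp3, in the basolateral membrane, was at 10.70, 11.16, 11.21 and 11.33 in the water rats and at 11.54, 11.89, 12.17 and 12.30 in the F68 rats. Its values did not overlap either, and the difference was 0.88 ± 0.16 or 1.83-fold (adjusted p = 3.98e-04). Without D5W then F68 replicate 3 or D5W then water replicate 3, Aqp2 lost its call (adjusted p up to 0.0711) and 1 member passed, and without D5W then F68 replicate 2 the count was 8. Without replicates 3 and 4, whose segment medians stood apart, Aqp2 was at 0.55 ± 0.20 (adjusted p = 0.424) and Aqp3 at 0.61 ± 0.19 (adjusted p = 0.274), and 0 members passed.

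In oxaliplatin rats at 6 h, Aqp2 was at 12.40, 12.76, 13.10 and 13.19 after water and at 13.14, 13.16, 13.51 and 13.62 after F68. Aqp3 was at 11.05, 11.12, 11.46 and 11.65 after water and at 11.47, 11.58, 11.98 and 12.07 after F68. Both had the same sign there with overlapping rats (0.49 ± 0.16, adjusted p = 0.160, and 0.45 ± 0.16, adjusted p = 0.189), and 0 of 32 members passed, beside 0.349% of all genes. The vehicle effect was not found to differ between infusions (adjusted p = 0.992 for Aqp2 and 0.936 for Aqp3). Averaged over both infusions, it was 0.61 ± 0.11 for Aqp2 (adjusted p = 2.90e-04) and 0.66 ± 0.11 for Aqp3 (adjusted p = 4.55e-05), and Slc7a9 and Slc7a7, both amino acid transporters of the proximal tubule, were lower (-0.22 and -0.33), making 4 of 32 beside 9.30% of all genes. This average holds the D5W then F68 rats that stood apart and is not given without them.

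At 1 h in D5W rats, 2 of 32 members passed, beside 3.90% of all genes. Slc9a3 was at 10.49, 10.65, 10.66 and 10.78 in the water rats and at 10.87, 11.03, 11.10 and 11.21 in the F68 rats, a difference of 0.41 ± 0.10 (adjusted p = 0.0102). The call was lost without 1 of the 8 rats (adjusted p = 0.0740) and when the fit held only the groups compared. In oxaliplatin rats Slc9a3 was at 10.46, 10.55, 10.66 and 10.79 after water and between 10.85 and 11.06 in the 4 rats after F68, a difference of 0.35 ± 0.10 (adjusted p = 0.0467). The F68 rats lay above the water rats under both infusions, and 13.7% of all genes did not overlap in D5W rats and 10.7% in oxaliplatin rats. Aqp1, the water channel of the proximal tubule and descending limb, was at 13.61 to 13.76 after water and 13.78 to 13.92 after F68 in D5W rats (0.16 ± 0.05, adjusted p = 0.0473), and leaving out any 1 of 6 of the 8 rats moved its adjusted p above 0.05. Averaged over both infusions at 1 h, 6 members passed, beside 18.3% of all genes, with Slc9a3, Aqp1, Slc12a1 (0.35), Aqp2 (0.31) and Aqp3 (0.30) higher and Slc26a4, the chloride-bicarbonate exchanger pendrin, lower (-0.40). At 24 h no member passed in D5W rats (2 at an unadjusted p under 0.05 by limma), beside 0.00812% of all genes. No marker of other cell types passed in these contrasts, and vehicle and dosing day cannot be told apart in them.

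**Figure D4:**
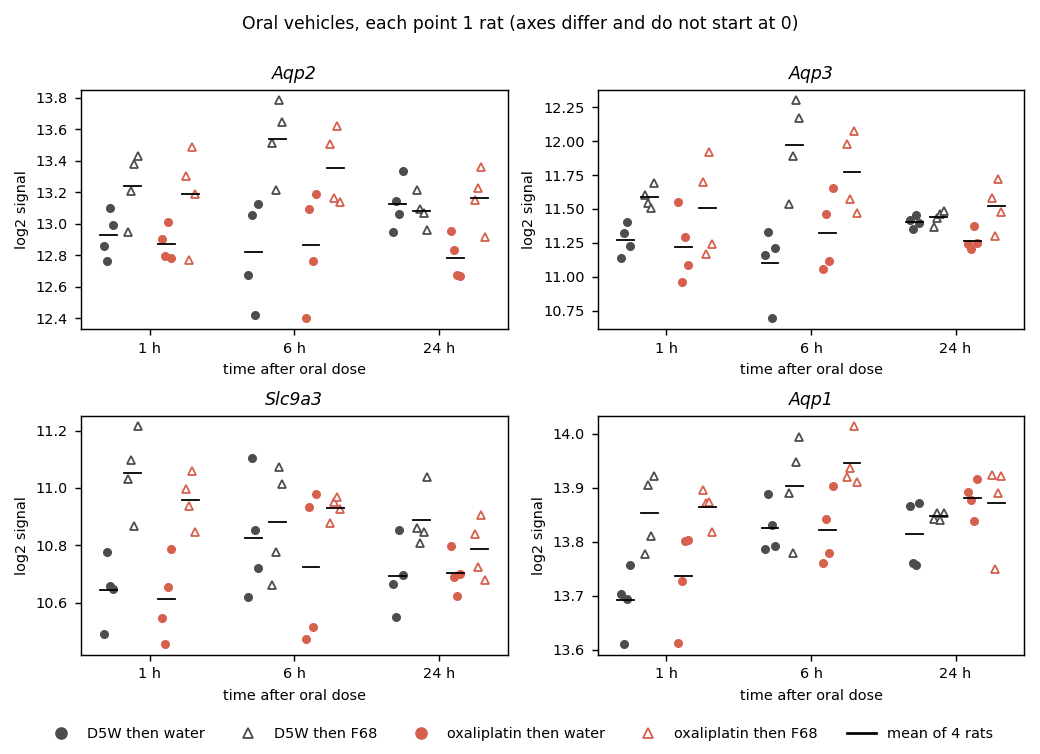
Log2 signal of Aqp2, Aqp3, Slc9a3 and Aqp1 in each kidney after oral water (filled circles) or F68 (open triangles), in D5W (grey) and oxaliplatin (red) rats at 1, 6 and 24 h, with lines for the mean of 4 rats. At 6 h the 4 F68 rats given D5W lie above the 4 water rats for Aqp2 and Aqp3, and at 1 h the F68 rats lie above the water rats for Slc9a3 under both infusions.

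Levels also moved over time in the 8 D5W rats given an oral vehicle at each time. Of the 4 podocyte genes, 1 was lower at 6 than at 1 h and 2 were higher at 24 than at 6 h. Synpo, the synaptopodin of podocyte actin, ranged from 10.43 to 10.66 with a median of 10.51 at 1 h, from 9.79 to 10.37 with a median of 10.22 at 6 h and from 10.27 to 10.73 with a median of 10.49 at 24 h. The rats at 6 h all lay below those at 1 h (-0.35 ± 0.09, adjusted p = 0.0155), where 0.252% of all genes did not overlap, and the level at 24 h was higher again by 0.32 ± 0.09 (adjusted p = 0.0158). Nphs1 rose by 0.39 ± 0.11 from 6 to 24 h (adjusted p = 0.0212). One D5W then F68 rat at 6 h (replicate 3) had the lowest podocyte median of all 95 arrays, 8.81, and the highest loop median, 12.14. Without it, 2 members passed between 6 and 24 h. Without it and replicate 4, no member passed from 1 to 6 h or from 6 to 24 h, and Synpo was at -0.28 (adjusted p = 0.137) and 0.24 (adjusted p = 0.173).

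With all rats, 2 of 32 members passed from 1 to 6 h, Synpo and Slc17a1 (-0.24 ± 0.06, adjusted p = 0.0246), beside 1.98% of all genes (1.1% lower). From 6 to 24 h 6 passed, beside 7.33% of all genes. Higher at 24 h were Nphs1, Synpo, Slc7a9 (0.24 ± 0.07) and Scnn1b, the beta subunit of the sodium channel (0.27 ± 0.07), and lower were Egf (-0.12 ± 0.04, adjusted p = 0.0222) and Scnn1a (-0.36 ± 0.11, adjusted p = 0.0386). The Scnn1a call was lost without any 1 of 8 of the 16 rats (adjusted p up to 0.174) and the Scnn1b call without 1 (adjusted p = 0.0693). From 1 to 24 h 2 passed, Egf (-0.12 ± 0.04, adjusted p = 0.0356) and Scnn1a (-0.38 ± 0.11, adjusted p = 0.0412), beside 3.40% of all genes. Those 2 calls were each lost without 1 of 9 of the 16 rats. Arrays at 24 h carry another code in their titles than those at 1 and 6 h, so that time and this code cannot be told apart. Among markers of other cells, Kdr of endothelium was higher (0.30 ± 0.08) and Acta2 of smooth muscle lower (-0.21 ± 0.06) at 24 than at 6 h. Tagln of smooth muscle was lower at 24 than at 1 h (-0.52 ± 0.14, adjusted p = 0.0197). The part of these 3 markers was not tested.

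No member passed for either kinase inhibitor. Sunitinib was compared with water and sorafenib with F68, 4 against 4 rats, or 3 sorafenib rats for D5W at 24 h. After D5W, sunitinib gave 0 of 32 calls by limma at 1, 6 and 24 h (3, 1 and 0 at an unadjusted p under 0.05), beside 0.0244%, 0% and 0% of all genes. After oxaliplatin it gave 0 calls at each time (1, 4 and 0 at an unadjusted p under 0.05), beside 0.244%, 0% and 0% of all genes. Sorafenib gave 0 calls after D5W (1, 1 and 2 unadjusted), beside 0%, 0.0731% (0.0487% lower) and 0.203% (0.065% higher and 0.138% lower) of all genes, and 0 after oxaliplatin (3, 3 and 3 unadjusted), beside 0.00812%, 0.544% and 0% of all genes. Member differences ran from -0.45 to 0.35 over the 12 contrasts, and the 95% intervals of all members reached from -0.73 to 0.67. The lowest difference was that of Slc5a1 under sorafenib after oxaliplatin at 1 h (-0.45, interval -0.68 to -0.22, adjusted p = 0.498). That contrast holds the array with the highest fibroblast and lymphocyte marker medians. The lowest bound was that of Avpr2 under sorafenib after oxaliplatin at 24 h (-0.38, interval -0.73 to -0.02), which did not pass either. Neither drug's effect was found to depend on the infusion (0 members in each interaction test, 0 and 1 at an unadjusted p under 0.05, beside 0% and 0.0162% of all genes). One contrast, sunitinib after oxaliplatin at 1 h, holds the array with the low hybridization control, and its median over all genes stood at 0.11.

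Members also varied together between rats that had received the same treatment. For this, each rat's deviation from its group mean was taken over 95 kidneys, and 6 pairs were tested with 100000 permutations within groups and adjusted over the 6. Nphs1 and Synpo, both of podocytes, had a Pearson's r of 0.68 and a Spearman's rho of 0.66 (adjusted p = 2.00e-05 for both, from the smallest p that these permutations can give). Umod and Slc12a1, both of the loop, had an r of 0.52 and a rho of 0.53 (adjusted p = 2.00e-05 for both, again the smallest). Across segments, Aqp2 and Slc34a1 went in opposite directions, with an r of -0.58 and a rho of -0.57 (adjusted p = 2.00e-05 for both, again the smallest). Umod and Slc34a1 had an r of -0.40 and a rho of -0.42 (adjusted p = 0.00220 and 7.80e-04), and Umod and Aqp2 an r of 0.37 and a rho of 0.37 (adjusted p = 9.60e-04 and 0.00151). Aqp2 and Scnn1g, both of the collecting duct, were not related by this test (r = -0.18, rho = -0.23, permutation adjusted p = 0.153 and 0.0674).

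Without the 2 rats farthest from the median of the first gene of each pair, r was 0.62, 0.52, -0.59, -0.40, 0.41 and -0.28 in the same order. Without the array with the low hybridization control it was 0.65, 0.53, -0.57, -0.40, 0.37 and -0.15.

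Over all pairs, described without a test, genes correlated within the podocyte list (median r 0.53 over 6 pairs) and within the loop list (0.52 over 6 pairs), whereas medians were near 0 within the proximal list (0.11 over 78 pairs, from -0.49 to 0.84), the collecting duct list (0.08 over 21 pairs) or the distal list (-0.04 over 6 pairs). The closest pairs were Slc7a9 with Slc7a7 (0.84) and Slc7a9 with Slc4a4 (0.80), all of the proximal tubule. Avpr2 went with Kcnj1 of the loop (0.75), and Scnn1b went with Scnn1g (0.74). Between lists, medians ran from -0.27 for podocyte with loop genes to 0.25 for podocyte with distal genes. Single pairs across lists were closer, such as Slc12a1 with Fxyd2 (0.70) and Nphs1 with Slc5a2 (0.58). The most opposed were Slc5a2 with Aqp2 (-0.70) and Slc12a1 with Slc26a4 (-0.66). The proximal list held pairs of both signs, with Aqp1 and Ggt1 at 0.59 and both opposed to Slc5a2 (-0.49 and -0.43). In the collecting duct list, Aqp2, Aqp3 and Avpr2 correlated with one another at 0.56 to 0.69 and Scnn1b, Scnn1g and Slc26a4 at 0.64 to 0.74, whereas r between these sets ran from -0.41 to -0.04. Scnn1a correlated at 0.36 to 0.41 with the second set and at 0.05 to 0.10 with the first. Slc12a1 of the loop went with the first set (0.49 to 0.64) and Slc5a2 of the proximal tubule with the second (0.46 to 0.72). Egf of the distal list had an r of 0.21 to 0.44 with the loop genes and of -0.05 to 0.38 with the other distal genes. All points share one normalization, and the share of cortex and medulla in each section was not measured. The spread between rats of a group ranged from an SD of 0.04 for Slc3a1, a cystine transporter subunit, to 0.27 for Slc26a4. Slc3a1 sat near the top of the scale (mean 14.57), where signals can be compressed, so this range does not rank the genes.

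**Figure D5:**
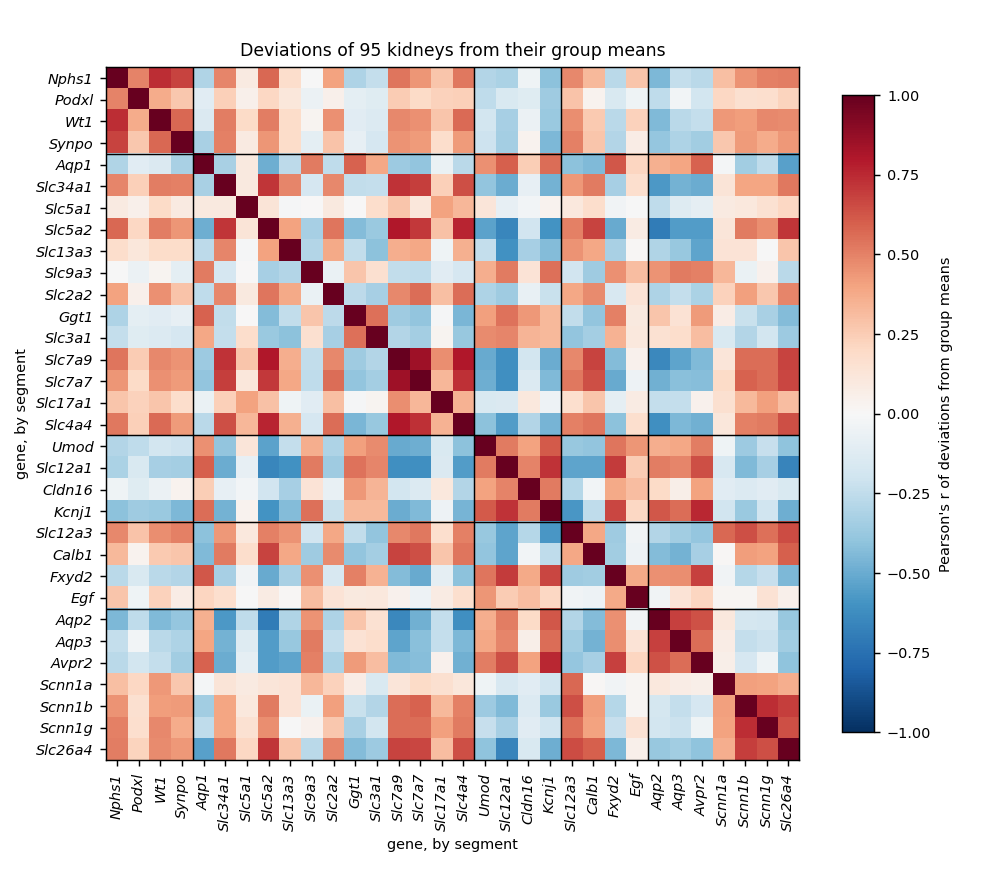
Pearson's r between the deviations of 32 nephron segment genes from their group means over 95 kidneys, ordered by segment, with red for positive and blue for negative values. Podocyte genes and loop genes each form a red block, with red cells outside it too, and the proximal list holds both signs. In the collecting duct list Aqp2, Aqp3 and Avpr2 form one block and Scnn1b, Scnn1g and Slc26a4 another, which Scnn1a joins more weakly.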

How the data were processed

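The deposited table held log2 values that the authors had made with RMA (background correction, quantile normalization and probe set summary) from Affymetrix rat expression arrays of kidney, heart and liver, 288 arrays in all. The RMA version and whether the tissues were normalized together are not given in the sources used here. RNA of single rats with a RIN at or over the submitters' minimum was hybridized, 1 array per rat and tissue.

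Of 31099 probe sets, 20832 had 1 gene symbol, 436 several and 9831 none, and only those with 1 symbol were named. A gene was read from its brightest probe set in kidney. Genes with a log2 value above 6 on at least 4 of 95 kidney arrays were tested. The members, the other gene lists and the tests were chosen with earlier results of these data known. A linear model with 24 group means was fitted to all kidney arrays with limma 3.58.1 (R 4.3.3), and contrasts were tested with empirical Bayes moderation and Benjamini-Hochberg adjustment over all genes at 0.05, after a check on simulated data. Deviations from group means were correlated with 100000 permutations within groups (scipy 1.17.1). Promoters were the 250 bases before each RefSeq start. The number of arrays limits the precision.

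Members passing in an oxaliplatin contrast were named with values, up to 4 per segment by size, and up to 6 in each other contrast. Up to 3 other genes per segment and contrast were named. Replicate numbers follow accession order and only name rats. Alternatives were another normalization, centring, filter, probe set rule, array weights, other sets of arrays, each rat left out and each oral arm.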

Additional observations from a re-analysis of the deposited data

Results flagged for a closer look

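Over 41 arms of the called genes, 3 held a rat whose gap to the next rat exceeded the limit of Dixon's test, where chance gives about 1 in 20. Slc17a1 was at 12.10 in oxaliplatin then F68 replicate 3 at 6 h, next to 12.24 in the nearest of the 8 rats. Umod was at 14.41 in D5W then water replicate 2 at 24 h, next to 14.48. Scnn1a was at 9.36 in oxaliplatin then F68 replicate 3 at 24 h, next to 8.84, and its difference without that rat was 0.30 (adjusted p = 0.114 by limma). The effect of oxaliplatin on Egf differed between 6 h and 1 h by -0.17 (adjusted p = 0.0219 by limma), the only member for which the test of that change passed.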

How the results depend on the processing

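No called member changed direction under any alternative run, whereas members that did not pass could, as the podocyte genes did. No paired analysis was possible because the labels give no replicate numbers. Under quantile normalization of kidney arrays alone and without the array of highest albumin, no count of members moved by more than 1.5 times. Oxaliplatin gave 0 calls at 1 h in the F68 rats and 2 over all 4 oral arms, 3 and 2 at 6 h in the water and F68 rats and 16 over all 4 arms, and 2 at 24 h in the water rats. With arrays centred on their medians, oxaliplatin at 6 h gave 3, vehicle rats 24 against 1 h 1, and F68 at 1 h 1. Without the filter, F68 at 1 h gave 1. With the mean of all probe sets, vehicle rats gave 1 from 1 to 6 h and 1 from 1 to 24 h. With the dropped array kept, oxaliplatin gave 0, 2 and 1 at 1, 6 and 24 h, its 6 against 1 h change 0, all 3 vehicle time contrasts 0, F68 at 1 and 6 h 0, and sorafenib after D5W at 24 h 23, all lower. F68 at 6 h gave 4 without the array of lowest BioB, 8 with array weights and 0 when the fit held only the groups compared, where F68 at 1 h gave 0 and vehicle rats 6 against 1 h gave 1. In analyses chosen after seeing the data, leaving out D5W then F68 replicates 3 and 4 at 6 h left 2 rats in that group. This gave 7 for oxaliplatin at 6 h (2 higher and 5 lower, with 2329 of all genes called). It gave 0 for F68 at 6 h and 0 for vehicle rats 6 against 1 h and 24 against 6 h. In others, F68 gave 1 at 1 h and 0 at 6 h in oxaliplatin rats, and 6 and 4 over both infusions. With each rat left out, oxaliplatin gave 1 to 1, 4 to 6 and 3 to 4 calls at 1, 6 and 24 h and 0 to 1 for its 6 against 1 h change. Vehicle rats gave 1 to 3 from 1 to 6 h (1 without D5W then water replicate 2 or 4 or F68 replicate 3 or 4 at 6 h, or water replicate 4 or F68 replicate 3 at 1 h), 2 to 7 from 6 to 24 h (3 without D5W then water replicate 2 or D5W then F68 replicate 4 at 6 h) and 0 to 2 from 1 to 24 h, with a lower count without 12 of the 16 rats. F68 gave 0 to 2 at 1 h, 0 without D5W then F68 replicate 4 and 1 without F68 replicate 2 or any water rat, and 1 to 8 at 6 h, 4 without D5W then F68 replicate 1 and 8 without replicate 2. Sunitinib after oxaliplatin at 1 h gave 0 to 1, with 1 without sunitinib replicate 3 or 4, and sorafenib after oxaliplatin at 1 h 0 to 1, with 1 without sorafenib replicate 4. All other kinase inhibitor and interaction counts stayed 0 to 0, as did F68 at 24 h and the 24 against 6 h change of oxaliplatin. Small changes of genes near the top of the scale, such as Umod, Slc3a1 and Slc34a1, may be compressed.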
